A study of Mus musculus with 6 samples.

Results

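A group of genes by which astrocytes and their progenitors are commonly recognised was followed in cultured mouse neural stem cells (NSCs) of a miR-151 conditional knockout (cko) and its control (ctrl). They are the intermediate filament genes *Gfap*, *Vim*, *Nes* and *Synm*, the marker genes *S100b* and *Aldh1l1*, and the transcription factor genes *Nfia*, *Nfib*, *Nfix* and *Sox9*. They were listed by symbol, and all 10 were found among the 32493 genes of the count table and passed the filter on low counts that left 16710 genes for testing. The NSCs had been dissected around the lateral ventricles of C57BL/6J embryos at E14.5 and kept in proliferation medium over 3 generations. In cko embryos both miR-151 alleles were floxed and Emx1-IRES-Cre was present, which drives Cre recombinase in the dorsal telencephalon. The ctrl embryos carried the same floxed alleles without Cre, and the sample labels name them wt. Both groups therefore share the floxed locus, and how many of the cultured cells descended from the Emx1 domain was not analysed here, nor was the level of miR-151 itself.

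The intermediate filaments are the cytoskeletal class that changes most visibly as a neural progenitor becomes an astrocyte. Radial glia and NSCs assemble filaments of vimentin and nestin, to which synemin can be added as a large linking subunit, and maturing astrocytes add glial fibrillary acidic protein and lose nestin. The nuclear factor I (NFI) proteins and SOX9 act earlier, at the switch of progenitors to gliogenesis, whereas the calcium-binding protein S100B and the folate enzyme ALDH1L1 are used as markers of astrocytes.

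The 10 genes did not move together. *Nes* and *Nfib* were higher in cko NSCs, *S100b* and *Synm* were lower, and the other 6 genes did not pass the test, which 16.4% of all tested genes passed in either direction. *Gfap*, the best known of the astrocyte genes, differed more between the ctrl libraries than between the genotypes, and the size of its change rested on 1 of them. Values are CPM, the counts of a gene scaled to a common library size after normalization by the trimmed mean of M values (TMM), with SD over libraries, and adjusted p-values are those of the quasi-likelihood test of edgeR with Benjamini-Hochberg adjustment over all 16710 genes.

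The comparison rests on 5 libraries. Of the 6 deposited columns, the one for ctrl replicate 2 was the rounded-up average of the columns for ctrl replicates 1 and 3 in 32493 of 32493 genes and was counted in no n. The others held 17883796 to 23335736 counts, so that a count of 3 stands at 0.129 to 0.168 CPM. Nothing in the labels says that replicates are separate cultures or embryos, so p-values measure only the spread between these libraries. *Sox2*, *Fabp7*, *Pax6* and *Hes5*, which mark NSCs, were present in every library, and 11 of the 12 NSC markers could be tested. The exception was *Emx1*, the gene whose promoter drives Cre, with 10 and 9 counts in the ctrl libraries and 1, 4 and 6 in the cko libraries. Of the 9 microglia markers, none could be tested, and *Aif1*, *Cx3cr1*, *Csf1r*, *Tmem119* and *Itgam* had at most 3 counts in any library.

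The start regions of 4 of the genes are shown, those of *S100b*, *Synm* and *Nes* because they were called and that of *Gfap* because the ctrl libraries part most widely on it. The other called gene is *Nfib*, whose start region is not shown. Each window holds 250 bases before the RefSeq start and 50 bases from it on, on GRCm38.p6 and on the strand of the gene. They are *S100b* (chr10:76253586-76253885, plus strand), *Synm* (chr7:67759693-67759992, minus strand), *Nes* (chr3:87970843-87971142, plus strand) and *Gfap* (chr11:102897151-102897450, minus strand). Capitals mark TTGGC, the NFI half-site, on either strand, and TTCNNNGAA, the core of a STAT site.
S100b: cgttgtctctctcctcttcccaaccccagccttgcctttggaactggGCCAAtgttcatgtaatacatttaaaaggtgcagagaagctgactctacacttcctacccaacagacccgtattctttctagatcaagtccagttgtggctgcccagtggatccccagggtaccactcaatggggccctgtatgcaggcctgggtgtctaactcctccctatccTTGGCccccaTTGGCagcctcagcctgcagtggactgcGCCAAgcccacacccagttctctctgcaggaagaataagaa
Synm: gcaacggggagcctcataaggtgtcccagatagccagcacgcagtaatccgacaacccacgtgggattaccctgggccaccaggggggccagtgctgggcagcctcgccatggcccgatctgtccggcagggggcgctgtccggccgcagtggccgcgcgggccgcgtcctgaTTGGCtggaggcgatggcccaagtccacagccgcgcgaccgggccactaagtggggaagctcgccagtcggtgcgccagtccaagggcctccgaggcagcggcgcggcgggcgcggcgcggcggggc
Nes: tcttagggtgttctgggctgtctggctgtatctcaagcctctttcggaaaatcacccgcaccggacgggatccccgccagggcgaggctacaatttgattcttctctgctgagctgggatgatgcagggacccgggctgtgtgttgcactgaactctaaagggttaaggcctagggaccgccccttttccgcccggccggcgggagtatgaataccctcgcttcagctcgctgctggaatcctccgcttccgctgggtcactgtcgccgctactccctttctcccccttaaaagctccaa
Gfap: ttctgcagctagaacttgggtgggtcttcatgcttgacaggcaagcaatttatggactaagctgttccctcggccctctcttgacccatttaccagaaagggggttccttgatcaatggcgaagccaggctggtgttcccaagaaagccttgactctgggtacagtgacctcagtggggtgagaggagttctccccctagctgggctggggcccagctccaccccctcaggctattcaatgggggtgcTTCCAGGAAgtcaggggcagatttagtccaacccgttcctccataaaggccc

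The *S100b* window held 4 NFI half-sites, whose first bases lie at -203, -29, -19 and 10 when the start is counted as base 1 and the base before it as -1. The half-sites at -203 and -19 share bases with a CCAAT sequence, which another factor family can bind. Windows with 4 or more half-sites made up 0.770% of the 32851 RefSeq windows, and windows with at least 1 made up 46.7%. *Synm* held 1 half-site, at -77, which also overlaps a CCAAT sequence, and *Vim* held 2. In the windows of *Nes* and *Gfap* these letters did not occur. *Gfap* held 1 STAT core, at -2, a sequence found in 8.30% of all windows. Of the other annotated *Gfap* transcripts, 1 starts further downstream and 1 further upstream, both outside the window. The full palindrome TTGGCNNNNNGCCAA, present in 0.0365% of windows, was in none of these 5 windows. A match of letters is a description of the sequence, and no binding was measured in these cells.

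*Vim* encodes vimentin, the filament of radial glia, NSCs and astrocytes alike (ENSMUSG00000026728, GRCm38 chr2:13573927-13582826). It stood at 3101 and 1995 CPM in ctrl libraries 1 and 3, and at 3547, 3374 and 3398 CPM in the 3 cko libraries. All cko libraries lay above both ctrl libraries, but ctrl library 1 came close to them and ctrl library 3 did not. The means were 2548 ± 782 CPM in ctrl (n = 2) and 3439 ± 93.7 CPM in cko (n = 3), a log2 fold change of 0.43 ± 0.17 (SE) that missed the threshold (adjusted p = 0.129). Against ctrl library 1 alone the log2 ratio of the cko mean was 0.15, and against ctrl library 3 alone it was 0.79.

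*Nes* encodes nestin, the filament protein of undifferentiated neural progenitors (ENSMUSG00000004891, GRCm38 chr3:87971078-87980451). Its levels were 471 and 537 CPM in the ctrl libraries and 874, 1068 and 1034 CPM in the cko libraries. The genotypes were well apart, since the lowest cko library exceeded the highest ctrl library by more than the ctrl libraries differed from each other. The means of 504 ± 47.2 CPM (n = 2) and 992 ± 103 CPM (n = 3) gave a 1.97-fold rise, or 0.98 ± 0.11 (SE) on the log2 scale with a 95% interval from 0.71 to 1.25 (adjusted p = 0.00287). Of the 10 genes, *Nes* and *S100b* were the ones called under all 12 alternative settings.

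*Gfap* encodes the filament protein that defines mature and reactive astrocytes (ENSMUSG00000020932, GRCm38 chr11:102887336-102900912). It was read at 1008 CPM in ctrl library 1 and 178 CPM in ctrl library 3, against 298, 86.7 and 122 CPM in the cko libraries. Ctrl library 1 was far above all others, and ctrl library 3 lay inside the range of the cko libraries, so the genotypes overlapped. The 5.67-fold difference between the ctrl libraries, 2.5 on the log2 scale, was exceeded by 0.886% of all tested genes. Mean levels were 593 ± 587 CPM in ctrl (n = 2) and 169 ± 113 CPM in cko (n = 3), and the log2 fold change of -1.82 ± 0.71 (SE) missed the threshold with an interval from -3.49 to -0.15 (adjusted p = 0.126). Without ctrl library 3 the change was -2.58, and without ctrl library 1 it was -0.09. Each of these fits holds 1 ctrl library, so the spread between the ctrl libraries does not enter it.

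*Synm* encodes synemin, the large subunit that joins vimentin and GFAP filaments (ENSMUSG00000030554, GRCm38 chr7:67730160-67759742). It was low throughout, at 3.36 and 6.14 CPM in the ctrl libraries and 0.839, 1.76 and 1.61 CPM in the cko libraries, from 77 and 115 counts against 15, 41 and 35. Every cko library was below both ctrl libraries, and among the ctrl libraries it was library 3, not library 1, that was the higher. The means of 4.75 ± 1.96 CPM (n = 2) and 1.40 ± 0.493 CPM (n = 3) made *Synm* 3.32-fold lower in cko, with a log2 fold change of -1.73 ± 0.38 (SE) and an interval from -2.63 to -0.83 (adjusted p = 0.0241). The call was lost without ctrl library 3 (-1.23) and without any one cko library (adjusted p from 0.0609 to 0.0866). *Synm* shares 84 exonic bases with *Ttc23* on the opposite strand, which had 383 and 354 counts in ctrl and 157, 135 and 107 in cko. Whether the counting used strand is not given in the sources used here, and the part of *Ttc23* reads in the difference was not tested.

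**Figure D1:**
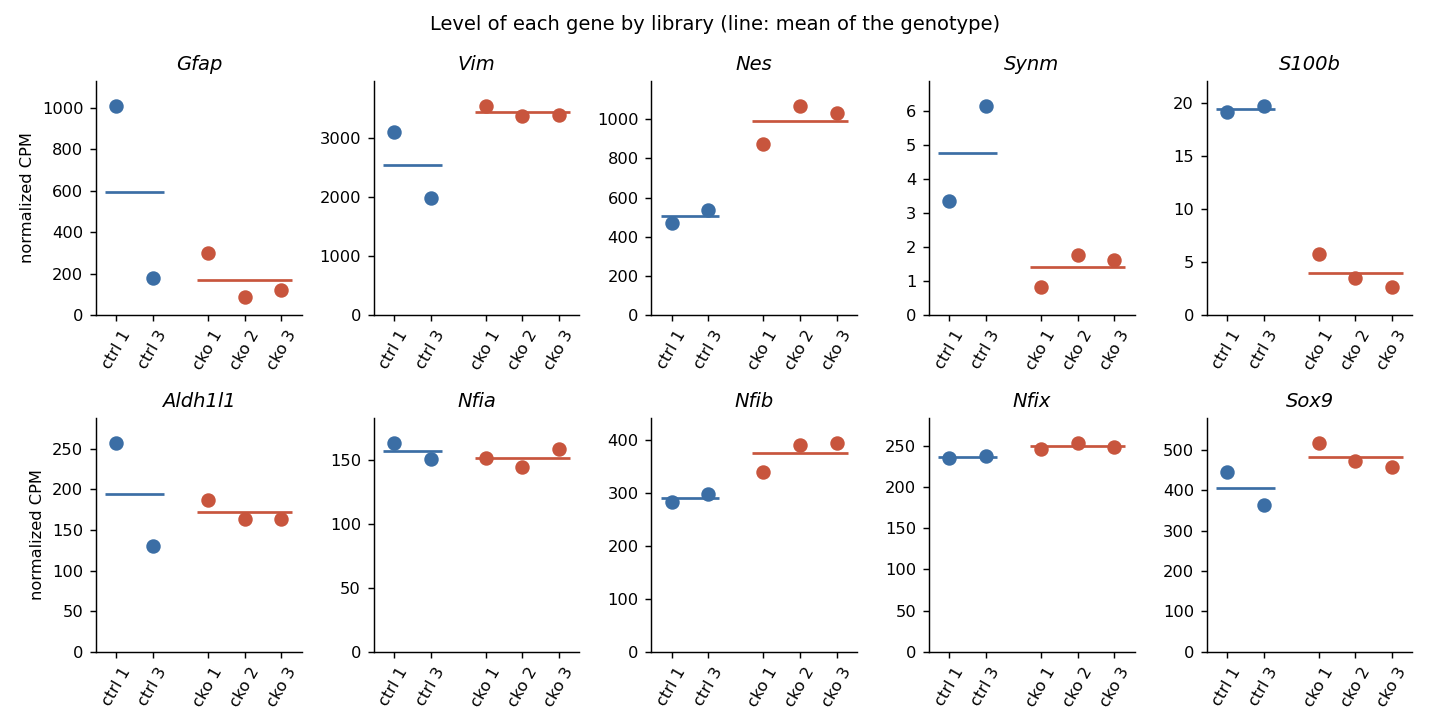
Normalized CPM (vertical axes, linear from 0) of the 10 genes in ctrl libraries 1 and 3 (blue) and cko libraries 1 to 3 (red), 1 point per library with a line at the mean of each genotype. *Nes* and *S100b* separate the genotypes with ctrl libraries close together, whereas ctrl library 1 stands at 1008 CPM of *Gfap* and ctrl library 3 at 178 CPM.

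Set against each other per kilobase of exon, the filament transcripts were dominated by *Vim*, with 537 ± 165 CPM per kb in ctrl and 725 ± 19.7 in cko. In ctrl, *Gfap* at 141 ± 139 CPM per kb could not be ordered against *Nes* at 78.6 ± 7.35, since ctrl library 1 had more *Gfap* than *Nes* (239 against 73.4) and ctrl library 3 had less (42.1 against 83.8). In cko all 3 libraries had more *Nes* than *Gfap*, with means of 155 ± 16.1 and 40.0 ± 26.8 CPM per kb. *Synm* stood at 0.599 ± 0.247 CPM per kb in ctrl and 0.177 ± 0.0621 in cko, the lowest level of all 10 genes in both genotypes.

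As a share of the summed reads per kb of the 4 filament genes, *Gfap* made up 24.7% and 7.70% in the ctrl libraries and 7.39%, 2.29% and 3.18% in the cko libraries. *Vim* made up 67.6% and 76.9% in ctrl and 78.3%, 79.2% and 79.0% in cko. *Nes* made up 7.59% and 15.3% in ctrl and 14.3%, 18.5% and 17.8% in cko. The shares of *Gfap* and *Vim* were apart between the genotypes, but cko library 1 came close to ctrl library 3 for *Gfap*, and the shares of *Nes* overlapped. With 2 against 3 libraries an exact two-sided permutation test cannot give a p below 0.1. It gave that value for *Gfap*, *Vim* and *Synm* (adjusted over the 4 shares, 0.133) and 0.3 for *Nes*. The summed filament level was 967 and 547 CPM per kb in the ctrl libraries and 955, 898 and 907 in the cko libraries, so ctrl library 3 alone was low.

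**Figure D2:**
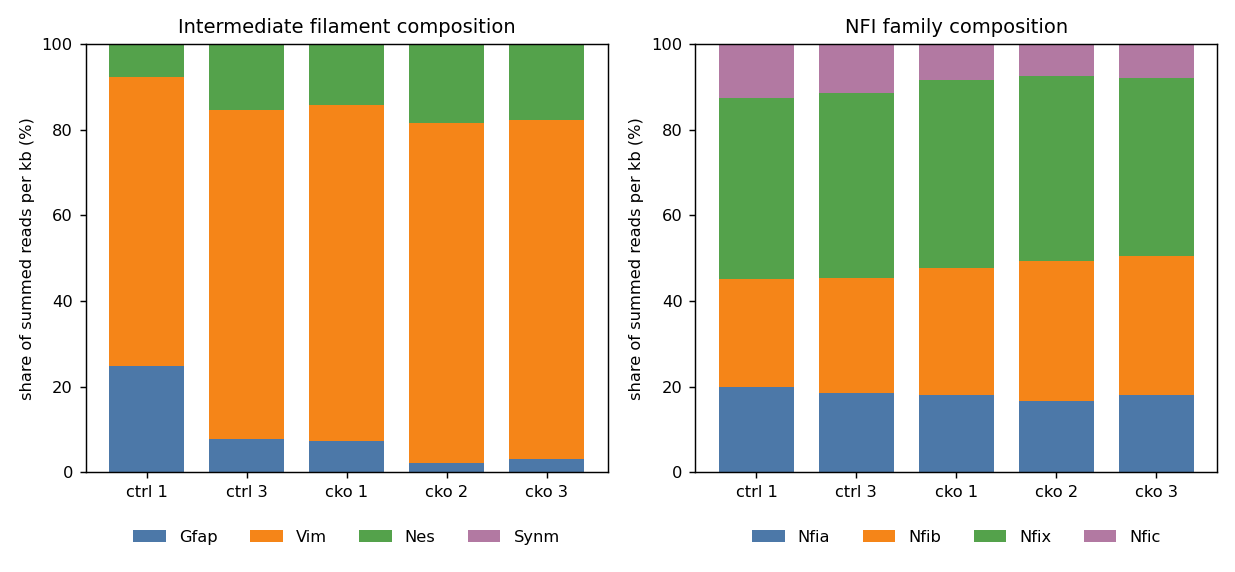
Share of the summed reads per kb (vertical axes, percent) taken by the filament genes *Gfap*, *Vim*, *Nes* and *Synm* (left) and by the NFI genes *Nfia*, *Nfib*, *Nfix* and *Nfic* (right) in each library. The *Gfap* share is 24.7% in ctrl library 1 and 7.70% or less elsewhere, *Synm* is too small to see, and the *Nfib* share is 29.7% to 32.6% in cko against 25.1% and 26.7% in ctrl.

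*S100b* encodes a calcium-binding protein of astrocytes that is also found in oligodendrocyte lineage cells (ENSMUSG00000033208, GRCm38 chr10:76253853-76261159). Its ctrl libraries held 19.2 and 19.7 CPM and its cko libraries 5.76, 3.52 and 2.62 CPM, from 440 and 370 counts against 103, 82 and 57. The ctrl libraries were almost equal, all cko libraries were below them, and the cko libraries differed among themselves more than the ctrl libraries did. The means of 19.5 ± 0.369 CPM (n = 2) and 3.97 ± 1.62 CPM (n = 3) made *S100b* 4.96-fold lower in cko. Its log2 fold change of -2.31 ± 0.28 (SE), with an interval from -2.97 to -1.64, was the largest in size among the 10 genes (adjusted p = 0.00343). The gene shares no exonic base with *Dip2a*, which overlaps it on the opposite strand.

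*Aldh1l1* encodes a cytosolic folate dehydrogenase whose promoter is widely used to label astrocytes (ENSMUSG00000030088, GRCm38 chr6:90486427-90600203). The ctrl libraries stood at 257 and 131 CPM, and the cko libraries at 187, 164 and 164 CPM. All 3 cko libraries fell between the ctrl libraries, which differed by 0.98 on the log2 scale, more than all but 9.69% of tested genes. The means were 194 ± 89.7 CPM (n = 2) and 172 ± 13.4 CPM (n = 3), with a log2 fold change of -0.18 ± 0.24 (SE) and an interval from -0.75 to 0.39 (adjusted p = 0.657). The single ctrl libraries gave opposite directions, -0.58 without ctrl library 3 and 0.38 without ctrl library 1.

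Of the marker genes, therefore, *S100b* fell in cko whichever ctrl library was used, and *Aldh1l1* had no direction that both ctrl libraries shared. Per kb, *Aldh1l1* was the more abundant in every library, with 28.9 to 57.0 CPM per kb against 1.77 to 13.3 for *S100b*.

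*Nfia* encodes a factor that opens the gliogenic programme in progenitors (ENSMUSG00000028565, GRCm38 chr4:97772734-98118874). It was read at 163 and 151 CPM in ctrl and 151, 145 and 159 CPM in cko. The genotypes overlapped, and the means of 157 ± 9.08 CPM (n = 2) and 151 ± 7.0 CPM (n = 3) differed by less than the spread within either. Its log2 fold change was -0.05 ± 0.08 (SE), with an interval from -0.24 to 0.13 (adjusted p = 0.692).

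*Nfib* encodes a close relative of NFIA that acts in glial and late progenitor development (ENSMUSG00000008575, GRCm38 chr4:82290173-82705750). It was read at 282 and 298 CPM in ctrl and at 340, 390 and 395 CPM in cko. All cko libraries exceeded both ctrl libraries, with cko library 1 nearest to them. The means of 290 ± 11 CPM (n = 2) and 375 ± 30.2 CPM (n = 3) gave a 1.29-fold rise, or 0.37 ± 0.09 (SE) on the log2 scale with an interval from 0.16 to 0.58 (adjusted p = 0.0334). The call was lost without cko library 2 (0.33, adjusted p = 0.157) and without cko library 3 (0.32, adjusted p = 0.154).

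*Nfix* encodes the NFI protein linked to the timing of NSC differentiation (ENSMUSG00000001911, GRCm38 chr8:84699876-84800344). Its levels of 234 and 237 CPM in ctrl and 246, 253 and 248 CPM in cko were the most even of the 10 genes, and the genotypes did not overlap. The means of 236 ± 1.83 CPM (n = 2) and 249 ± 3.70 CPM (n = 3) differed by 0.08 ± 0.07 (SE) on the log2 scale, with an interval from -0.08 to 0.24 (adjusted p = 0.458).

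Within the NFI family, *Nfib* made up 25.1% and 26.7% of the summed reads per kb in the ctrl libraries and 29.7%, 32.6% and 32.5% in the cko libraries. *Nfic*, the fourth gene of the family, fell by 0.50 on the log2 scale (adjusted p = 0.0106) and went from 12.5% and 11.3% in ctrl to 8.50%, 7.57% and 7.90% in cko. *Nfix* held 41.6% to 43.7% in every library and *Nfia* 16.6% to 20%. The shares of *Nfib*, *Nfic* and *Nfia* did not overlap between the genotypes, and each had an exact permutation p of 0.1, the smallest that this design can give. The summed NFI level was 75.2 and 74.4 CPM per kb in ctrl and 76.6, 79.8 and 81.1 in cko.

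*Sox9* encodes the factor that specifies glial progenitors and induces *Nfia* (ENSMUSG00000000567, GRCm38 chr11:112782224-112787760). It was read at 446 and 364 CPM in ctrl and at 518, 472 and 457 CPM in cko. All cko libraries were above both ctrl libraries, although cko library 3 was close to ctrl library 1. The means of 405 ± 58.2 CPM (n = 2) and 482 ± 31.8 CPM (n = 3) gave a log2 fold change of 0.25 ± 0.11 (SE) that missed the threshold (adjusted p = 0.157). Without ctrl library 1 the log2 fold change was 0.40.

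**Figure D3:**
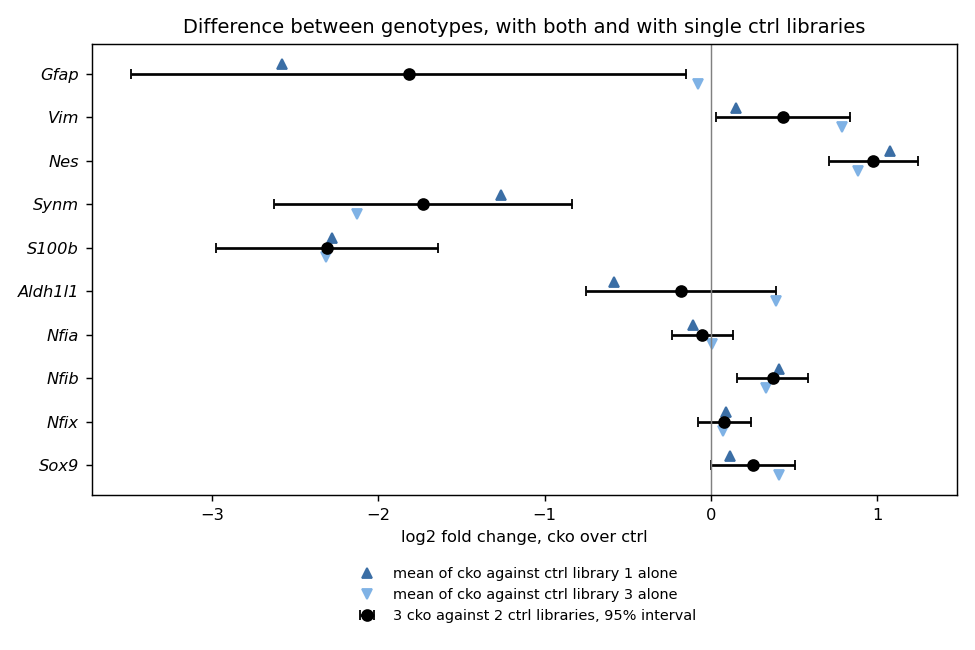
Log2 fold change of cko over ctrl (horizontal axis) for each gene, as black points with 95% intervals from edgeR, and the log2 ratio of the cko mean to ctrl library 1 alone (dark triangles) or ctrl library 3 alone (light triangles). For *S100b* the single ctrl libraries give -2.28 and -2.32 and for *Nes* 1.08 and 0.88, while for *Gfap* they give -2.58 and -0.08.

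Counted together, 2 of the 10 genes were called higher in cko, where 7.86% of all tested genes were, and 2 were called lower, where 8.57% were. In 5 genes (*Vim*, *Nes*, *Nfib*, *Nfix* and *Sox9*) all cko libraries lay above both ctrl libraries, as in 25.4% of all tested genes. In 2 (*S100b* and *Synm*) all lay below, as in 24.3%. The threshold of the study, set there with DESeq2, was a log2 fold change beyond 0.9 in size and an unadjusted p under 0.01. Applied here to the edgeR test on 5 libraries, it was passed by *Nes*, *S100b* and *Synm*, beside 6.55% of all tested genes. The median log2 fold change was 0.01 over the 10 genes and -0.00 over all tested genes. A lower level in bulk RNA can come from fewer cells of a type or from less RNA per cell, and these libraries cannot tell them apart.

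The ctrl libraries differed by more than 1.5-fold in 4 of the 10 genes, where 20.4% of all tested genes did. The 4 were *Gfap* and *Aldh1l1*, with more in ctrl library 1 by 2.5 and 0.98 on the log2 scale, *Vim*, with more in ctrl library 1 by 0.64, and *Synm*, with more in ctrl library 3 (-0.87). The median difference in size over all genes was 0.23. The remaining 6 genes were within 0.29 of each other between the ctrl libraries, and *S100b* (-0.04) and *Nfix* (-0.02) were nearly equal. In 4 of the 10 genes the difference between the ctrl libraries exceeded the whole span of the cko libraries, as it did in 48.1% of all tested genes. The cko mean lay on the same side of both ctrl libraries in 8 of the 10 genes, and the exceptions were *Aldh1l1* and *Nfia*. The share of all tested genes for which this held was not computed, so the count is no result about these genes. It includes *Gfap*, whose log2 ratio to ctrl library 3 alone was -0.08, with that library inside the cko range.

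**Figure D4:**
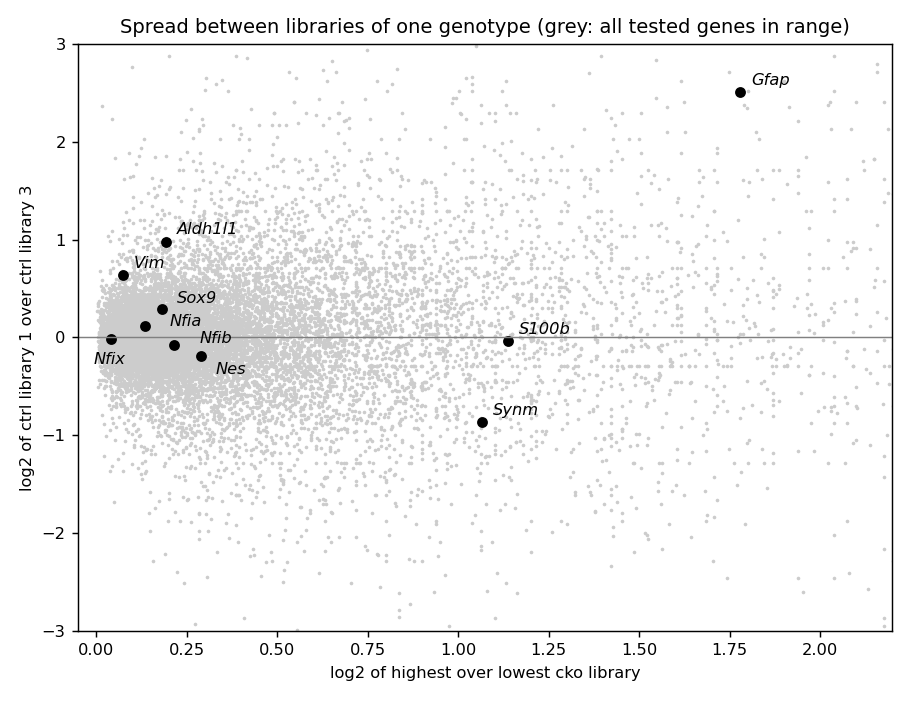
Log2 ratio of ctrl library 1 to ctrl library 3 (vertical axis) against the log2 ratio of the highest to the lowest cko library (horizontal axis) in normalized CPM, with the 10 genes in black and the other tested genes that fall within the axes in grey. *Gfap* stands far out on both axes, at 2.5 between the ctrl libraries, whereas *S100b* is spread along the cko axis only, with -0.04 between the ctrl libraries.

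Other genes with related roles were read from lists. Of 16 further astrocyte markers, 13 were lower in cko and none was higher, with a median log2 fold change of -1.02. The count of lower markers was 4 without cko library 2 and 5 without cko library 3, although 15 of the 16 fold changes stayed below 0 in both fits, and 1 marker was called higher without ctrl library 1. The bicarbonate transporter gene *Slc4a4* fell by 2.0 (adjusted p = 0.00174), *Cldn10* by 2.79 (adjusted p = 0.00154) and *Agt*, which encodes angiotensinogen, by 1.16 (adjusted p = 0.00294). The 3 that were not called were *Aqp4*, *Fgfr3* and *Id4*. The summed level of the list was 7026 and 7350 CPM in ctrl and 4485, 3236 and 3244 CPM in cko. The ctrl sums were close, but single markers could differ between ctrl libraries 1 and 3. *Id4* stood at 79.8 and 27.2 CPM there and *Aqp4* at 97.5 and 55.2 CPM. Ctrl library 1 was above ctrl library 3 in 6 of the 16 markers. *S100b* stood with these markers in direction, and *Aldh1l1*, *Nfia* and *Sox9* did not pass the test.

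In the S100 family, 4 of the 6 tested relatives of *S100b* were lower and 1 was higher, with a median of -1.24. *S100a16* fell by 1.32 (adjusted p = 0.00207), *S100a6* by 2.35 (adjusted p = 0.00452) and *S100a1* by 1.71 (adjusted p = 0.00528), and *S100a13* was the remaining gene called lower. *S100a10*, whose product partners annexin A2, was higher by 0.75 (adjusted p = 0.0188), a call lost without cko library 2 or without cko library 3, which left 3 lower genes. Among 15 other intermediate filament and linker genes, 11 could be tested, and 1, the nuclear lamin gene *Lmnb1*, was called, at 0.98 (adjusted p = 0.00229). The neurofilament gene *Nefm* stood at 0.71 (adjusted p = 0.0771) and the linker gene *Plec* at -0.61 (adjusted p = 0.255).

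Of 11 folate enzymes, the family of pathways that *Aldh1l1* belongs to, 2 were higher and none was lower. Among the higher was the thymidylate synthase gene *Tyms*, by 0.76. The ctrl libraries disagreed on this list, and 1 of the 11 genes was higher in ctrl library 1 than in ctrl library 3. The summed level was 384 and 599 CPM in ctrl libraries 1 and 3, with the cko libraries between them at 455, 504 and 487 CPM. Of 16 genes of the gliogenic cytokine pathway, which acts on *Gfap* through STAT3, *Jak2* was higher by 0.42 (adjusted p = 0.0298) and *Lif* lower by 2.36 (adjusted p = 0.0131). *Lif* rests on few counts, 39 and 51 in ctrl and 4, 12 and 11 in cko. *Stat3* itself stood at 381 and 297 CPM in ctrl and 328, 311 and 297 CPM in cko (adjusted p = 0.513). Ctrl library 1 was above ctrl library 3 in 11 of these 16 genes, most widely in *Clcf1* (4.89 and 0.747 CPM) and *Osmr* (10.9 and 2.13 CPM). Of 20 genes of reactive astrocytes, 14 could be tested, 5 of them were lower and 2 higher. Ctrl library 1 was the higher ctrl library in 11 of the 14, with a median log2 ratio to ctrl library 3 of 0.61. *Gbp2* (-1.92), *Cp* (-0.57) and *Emp1* (-1.77) were lower, and *Psmb8* (1.68) and *H2-D1* (0.49) were higher. *Psmb8* had only 16 and 15 counts in ctrl and 48, 65 and 38 in cko. No gene of the list was called higher without cko library 1 or without cko library 2, and 1 was without cko library 3. The count of lower genes in this list was 7 without ctrl library 3, 2 without ctrl library 1 and 1 without cko library 1. The quasi-likelihood test of edgeR called 0 of them lower without cko library 2 or without cko library 3, where 5 had an unadjusted p under 0.05. The folate calls and those of *Jak2* and *Lif* were likewise lost when either of these cko libraries was left out, and that of *Jak2* also without cko library 1.

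Of 13 further transcription factors of astrocytes, 5 were lower and 2 higher, and the lower ones were 3 without cko library 1 and 1 without cko library 2 or without cko library 3. *Hes1* (-1.04), *Nfic* (-0.50) and *Zbtb20* (-0.42) were the lower ones with the smallest p, and *Lhx2* (0.65) and *Sox21* (0.57) were the higher ones. When 1 cko library was left out, whichever it was, 1 gene of this list was called higher. *Sox21* stood at 183 and 125 CPM in ctrl libraries 1 and 3 and at 216, 242 and 226 CPM in the cko libraries. Of the genes known to be induced by SOX9 and NFIA, *Mmd2* fell by 0.80 (adjusted p = 0.00567), while *Apcdd1* at 0.91 (adjusted p = 0.119) and *Zcchc24* at -0.04 (adjusted p = 0.731) did not pass.

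Markers of other cell types moved with the genotype as well. Of 12 oligodendrocyte lineage markers, 7 were lower, among them *Myrf* (-2.90) and *Mbp* (-4.16), and *Olig1* (0.63) and *Olig2* (0.38) were higher. The 7 lower calls held when any one library was left out, and the higher ones were lost without cko library 2 or without cko library 3. Their summed level of 3302 and 3897 CPM in ctrl and 3516 to 3766 CPM in cko overlapped, and the defining myelin gene *Mbp* fell from 3184 and 4463 counts to between 188 and 256. Of the 11 NSC markers tested, 4 were higher (*Hes5*, *Lhx2*, *Prom1* and *Notch1*) and 1 was lower, *Slc1a3*, which is also among the astrocyte markers, with sums of 4558 to 5230 CPM over all libraries. The higher NSC markers were 3 without cko library 2 or without cko library 3, and no NSC marker was called lower without cko library 2. Of 10 tested neuron markers, 3 were higher and 1 was lower, with sums of 1253 to 1421 CPM. When 1 cko library was left out, whichever it was, 2 neuron markers were called higher. Summed levels reached at most 1.44 CPM for microglia, 6.76 for endothelial, 6.72 for fibroblast and pericyte, and 25.7 for ependymal and choroid plexus markers. The part of these cell types in the lower *S100b* and the higher *Nes* was not tested.

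**Figure D5:**
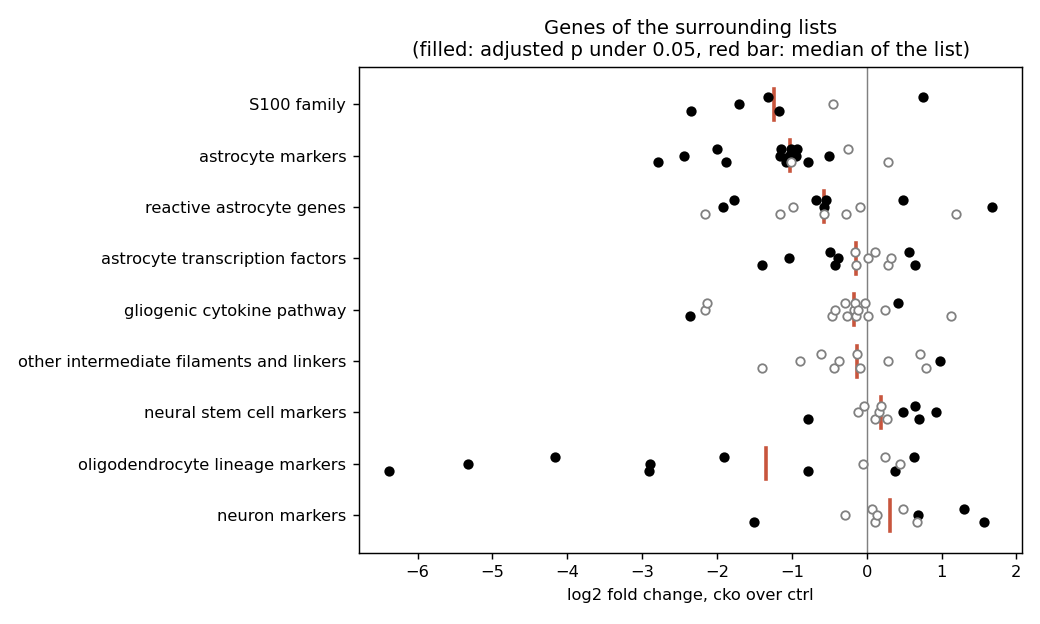
Log2 fold change of cko over ctrl (horizontal axis) of the tested genes in each list of related genes and cell markers, filled where the adjusted p of edgeR is under 0.05, with a red bar at the median of the list. The astrocyte markers have their median at -1.02 with 13 of 16 called lower (4 without cko library 2 and 5 without cko library 3), and the other intermediate filaments and linkers have 1 called gene.

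The genes most like *Nes*, *S100b* and *Gfap* over the 5 libraries were found by the root mean square difference of centred log2 CPM, among 10180 genes with a mean of at least 10 CPM. This is a description over 5 libraries, in which all genes share the same depths and the same split by genotype. For *Nes* they were *Cacng4* (0.0291), *Glce* (0.0317), *Tacc3* (0.0348), *H2afx* (0.0374) and *Rrm1* (0.0418), each between 0.92 and 1.02 higher on the log2 scale in cko. For *S100b* they were *Paqr7* (0.225), *Srcin1* (0.227), *Slc4a4* (0.251), *Vxn* (0.251) and *Col9a1* (0.252), of which *Slc4a4* is one of the astrocyte markers. For *Gfap* the nearest genes were *Gria1* (0.441), *Col4a6* (0.447), *Gpr149* (0.534), *Selenop* (0.576) and *Pdzrn3* (0.612). All 5 of them were also higher in ctrl library 1 than in ctrl library 3, by 0.85 to 2.24 on the log2 scale, which the measure of likeness itself favours.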

How the data were processed

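RNA-seq was performed on NSCs of 3 ctrl and 3 cko samples, grouped by the genotype label. After read filtering (NGSQC) and alignment to mm10 (HISAT2), the authors deposited unnormalized counts for each Ensembl gene. The sample labels name another assembly, GRCm39, and the counting tool, annotation and strand setting are not given in the sources used here, so overlapping genes are uncertain. Symbols, positions and exon lengths came from GENCODE M21 on GRCm38 (31829 of 32493 IDs matched). Of the 6 columns, 5 held counts of their own.

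Tests were run with edgeR 4.0.16 under R 4.3.3 (low-count filter by genotype, TMM, quasi-likelihood test over all genes, calls at an adjusted p under 0.05). Intervals of fold changes are at 95%, and the floor of 3 counts covers counting error only. Shares were compared by exact permutation tests. Promoter windows came from RefSeq tables, which matched 8 of the 10 genes. The 10 genes and all lists were chosen with earlier results of these data known. Named beside them are the called genes of each list, at most 3 per direction by p, the 5 genes nearest *Gfap*, *S100b* and *Nes*, and genes given because they were not called or check the cell type, which were chosen after their values were seen. Some genes that this rule names are not reported here. Alternatives were DESeq2 1.42.0, other normalization, filters, libraries and columns, a replicate block and other lengths. The steps were tested on simulated data. Figures were drawn with matplotlib 3.10.9.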

Additional observations from a re-analysis of the deposited data

How the results depend on the processing

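*Nes* and *S100b* kept their call and direction under all 12 alternatives, and the count of genes past the threshold of the study stayed between 2 and 4 (3 as reported). Leaving out 1 library moved the genes called higher (2) between 1 and 5 and those called lower (2) between 1 and 3. The 5 came without ctrl library 1, when *Vim* (0.78, adjusted p = 0.000188), *Sox9* and *Aldh1l1* were added, *Aldh1l1* with its direction turned to 0.38 (-0.58 without ctrl library 3). Such a fit assumes that the lone ctrl library varies like the cko libraries. DESeq2 on all 6 columns called 4 genes higher, *Vim* (0.43, adjusted p = 0.0110) and *Sox9* (0.25, adjusted p = 0.0361) being the added ones, and those p-values count the averaged column as a library. Without a filter on low counts *Gfap* (-1.81) and *Vim* (0.43) were called too, giving 3 higher and 3 lower, and the cause was not tested. Over all genes, the 1314 higher and 1432 lower calls fell to 317 and 416 without cko library 2.

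The replicate numbers shared by the genotypes name only 2 possible pairs, whose deviations correlated across genes at 0.143 (number 1) and 0.0507 (number 3). Those of ctrl library 3 and cko library 2, which differ in number, correlated at 0.116. With 2 ctrl libraries the ctrl deviations mirror each other, so these correlations cannot decide whether the numbers pair the samples. The main fit took the samples as unpaired. In the fit with the replicate block, only cko library 2 carries number 2, so it adds nothing to the genotype difference. The block fit therefore compares ctrl libraries 1 and 3 with cko libraries 1 and 3, and is no result over 5 libraries. For *Gfap* this sets aside the lowest level, 86.7 CPM in cko library 2. The block fit called 1 gene higher and 3 lower, since *Nfib* was lost (0.34, adjusted p = 0.101) and *Gfap* gained (-1.16, adjusted p = 0.00735). In the same fit 3 of the reactive astrocyte genes and 3 of the astrocyte transcription factors were called lower (5 each as reported).

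All alternatives for the lists were added after seeing the data. Leaving out 1 library moved the lower astrocyte markers (13) between 4 and 14, the lower reactive genes (5) between 0 and 7 and the lower transcription factors (5) between 1 and 6, each lowest without cko library 2 or 3, and the lower oligodendrocyte markers stayed at 7. Without a filter on low counts 8 reactive genes were lower.

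The share of *Nfix* in the NFI family, -0.07 percentage points in cko, ranged from -0.52 to 0.55 when 1 library was left out, turning to 0.39 without ctrl library 3 and 0.55 without cko library 3, and was -1.03 with the longest transcript and -1.27 without length scaling. Its log2 ratio between the ctrl libraries (-0.02) was -0.029 with median-of-ratios size factors and 0.0078 with library totals. *Synm* rests on 15 to 115 counts per library.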
